A study of Solanum lycopersicum with 8 samples.

Results

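The peel of atv (atroviolacea) mutant tomato fruit was compared with the peel of wild type fruit. The arrays were chosen by sample title, which gave 2 atv mutant and 2 wild type arrays, 4 of the 8 arrays of the study. The study hybridised RNA from mature green fruit of 4 Solanum lycopersicum genotypes to the Affymetrix Tomato Genome Array, with 2 biological replicates per genotype and 1 array per sample. The atv mutant is homozygous for atv, and the wild type is cv. Ailsa Craig. The remaining 4 arrays are the double mutant (Aft/Aft atv/atv) and the Aft (Anthocyanin fruit) mutant. Their difference is set here beside that of atv mutant and wild type. All plants were untreated and were grown over winter under greenhouse heating that held at least 12 °C. By the labels, neither atv mutant nor wild type fruit held significant anthocyanin, whereas double mutant fruit was strongly pigmented and Aft mutant fruit carried spots.

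Anthocyanins are made by a branch of flavonoid synthesis that starts at chalcone synthase and passes through dihydroflavonol reductase. Its genes are switched on by complexes of MYB, bHLH and WD40 proteins. The atv locus is known to encode a small R3 MYB protein that competes for the bHLH partner and so acts as a repressor, and Aft carries an activating R2R3 MYB gene from a wild relative. Mature green fruit is full-sized, still has photosynthetic plastids and stands just before the ethylene-driven onset of ripening.

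Values are log2 intensities after quantile normalization of all 8 arrays, and differences are the mean of the atv mutant arrays minus the mean of the wild type arrays on that scale. A probe set "rose" or "fell" where limma's Benjamini-Hochberg adjusted p was under 0.05 over the 9493 probe sets tested. The titles name no cultivar for the mutant lines, so line background and the atv allele cannot be told apart in any difference below. The labels call the replicates biological but do not say how plants or fruit were pooled. In bulk peel, fewer cells of a type and less RNA per cell cannot be told apart either.

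The median deposited intensity was 746.7 and 640.3 on the atv mutant arrays, against 686.7 and 654.0 on the wild type arrays, and 514.5 to 755.4 over the other 4. The replicates correlated across probe sets at r = 0.977 in the atv mutant and at 0.988 in wild type peel. Both atv mutant arrays stood apart from all others, with r of 0.895 to 0.910 against the wild type and 0.885 to 0.902 against the double and Aft mutants. Arrays of the other 3 genotypes correlated with each other at 0.938 to 0.974. The mean 3′ minus 5′ difference over 3 control genes, a measure of RNA integrity, was 1.33 and 1.21 in the atv mutant, against 1.40 and 1.23 in the wild type. For the tissue, 2 of 9 listed epidermis and cuticle markers were on the array, LE16 and TSW12, which encode lipid transfer proteins, and both were bright in every genotype. The sole trichome marker, MTS1, stayed at or near background, at 2.16 and 3.96 in the atv mutant against 3.24 and 3.88 in the wild type. No listed seed marker was on the array. For the stage, the fruit polygalacturonase PG2, which is abundant in ripe fruit, read 0.00 and 0.00 in the atv mutant, against 1.19 and 2.62 in the wild type, too low to be tested, while E8 and ACS2 were dim. The summed intensity of the 4 ripe fruit markers was 4504 and 4253 in the atv mutant against 2466 and 2512 in the wild type, nearly all of it from the phytoene synthase gene Psy1.

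Of 9493 probe sets, 3829 were called between atv mutant and wild type, or 40.3%. Of these, 1787 were higher (18.8%) and 2042 lower (21.5%) in the atv mutant. The calls were 46.7% higher with quantile normalization and 60.9% higher, 1210 against 777, on the intensities as deposited. The median difference over all tested probe sets was -0.11, or -0.06 as deposited. Changes of at least 1 on the log2 scale were called upward for 1012 probe sets (10.7%) and downward for 714 (7.52%). Changes of at least 8-fold were rarer: 167 probe sets (1.76%) rose and 75 (0.79%) fell by at least 3 on the log2 scale. Gene symbols were available for 849 tested probe sets, of which 416 (49.0%) were called. The counts in the lists below stand beside this background, and a list near it is not read as a result about its members.

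**Figure D1:**
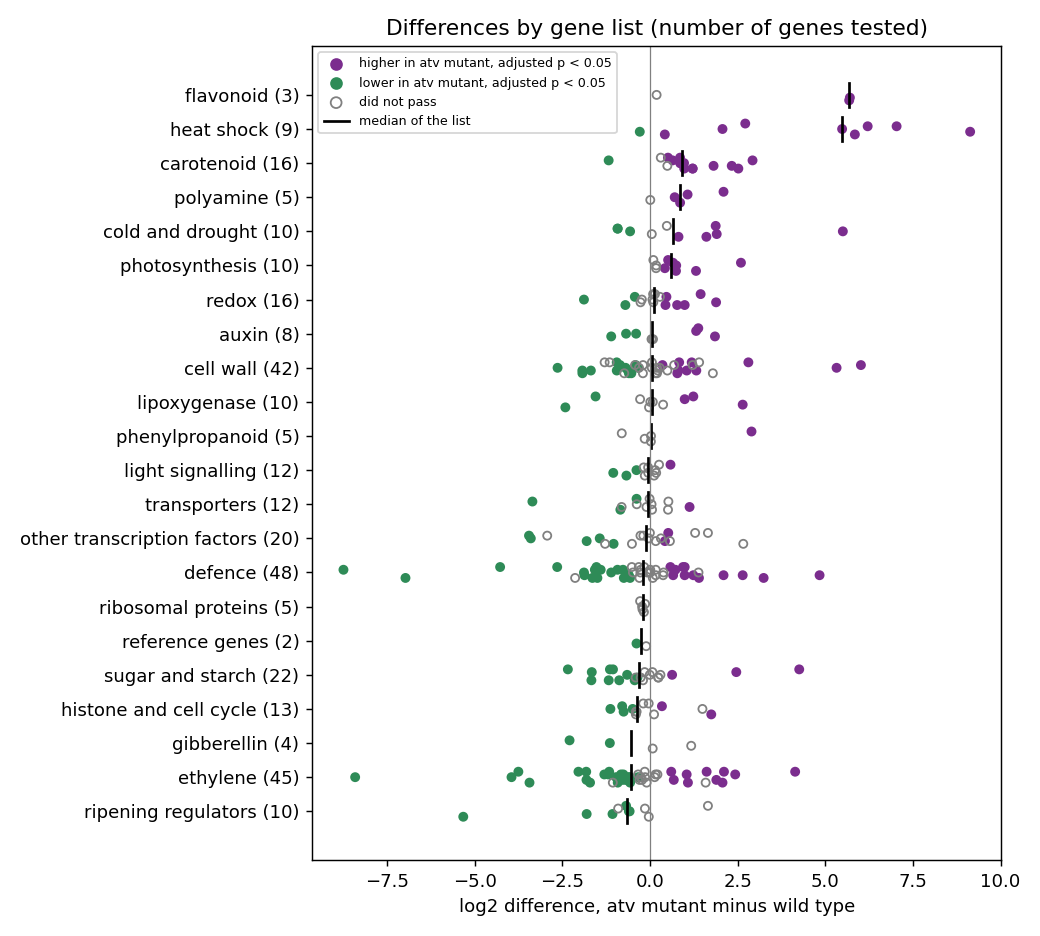
Log2 difference, atv mutant minus wild type, of each tested gene (1 point, brightest probe set) in the 22 gene lists, ordered by list median (black bar). The heat shock median lies at 5.48 and the carotenoid and photosynthesis medians at 0.92 and 0.58. The ethylene and ripening medians lie at -0.54 and -0.64. Intensities were floored only at 1 here, and with values floored at 16 the flavonoid median of 5.68 is 3.70.

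The mutation is named for its effect on pigment, which flavonoid genes make. CHS1, a chalcone synthase gene, read 13.35 and 13.41 in the atv mutant, against 7.59 and 7.78 in the wild type. The groups were far apart, and CHS1 rose by 5.70 (SE 0.10, adjusted p = 1.1e-05), a 52.0-fold difference in fruit that the labels describe as without significant anthocyanin. CHS2, the other chalcone synthase gene, read 14.10 and 14.04 in the atv mutant against 13.95 and 13.82 in the wild type, bright on every array, and did not pass (0.19, adjusted p = 0.20). DFR, dihydroflavonol reductase, read 7.49 and 7.92 in the atv mutant against 0.71 and 3.33 in the wild type, where it was near background. With values floored at 16, DFR was at least 13.0-fold higher in the atv mutant (adjusted p = 2.4e-05, or 0.0031 without that floor). The activator gene ANT1 was on the array but stayed under the minimum log2 level of 4 on every array (1.75 and 0.09 in the atv mutant, against 2.05 and 0.00 in wild type peel) and was not tested. So 2 of the 3 flavonoid genes tested rose and 1 did not pass. Double mutant fruit had DFR at 13.30 and 13.39 and Aft mutant fruit at 10.57 and 10.77, both above the atv mutant, whereas CHS1 in the double mutant, at 13.06 and 13.14, lay slightly below its level in the atv mutant.

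Small heat shock protein genes gave the largest rises of single genes in the lists. These proteins bind unfolding proteins under heat and other stress, and most are nearly silent in unstressed tissue. All 6 tested genes of this kind rose, by 2.72 to at least 8.52 with a median of 6.03 (values floored at 16), where 18.8% of all probe sets rose. HSP17.4 read 12.24 and 12.79 in the atv mutant, against 3.76 and 3.0 in the wild type. It was near background in the wild type and at least 366-fold higher in the atv mutant with values floored at 16 (adjusted p = 2.8e-05, or 0.00025 without that floor). The gene ER-SHSP, whose protein sits in the endoplasmic reticulum, read 10.92 and 10.99 in the atv mutant against 3.60 and 4.24 in the wild type. With values floored at 16, ER-SHSP was at least 114-fold higher (adjusted p = 1.4e-06, or 0.0040 without that floor). The compartments did not separate: the mitochondrial MTSHP was high on both atv mutant arrays (12.86 and 12.70, against 7.12 and 6.75 in the wild type, adjusted p = 3.0e-05). The plastid HSP21 read 11.06 and 11.36 in the atv mutant against 5.61 and 5.84 in the wild type, a 44.6-fold rise (adjusted p = 7.8e-05). The small heat shock protein genes vis1 and HSP17-6 rose by 6.21 and 2.72, with 10.54 and 10.24 for vis1 in the atv mutant against 4.34 and 4.03 in the wild type.

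The larger chaperones differed among themselves. Hsp90-1 read 12.97 and 13.08 in the atv mutant against 12.58 and 12.62 in the wild type, a rise of 0.42 (adjusted p = 0.043) that was lost in 10 of the alternatives run, among them the intensities as deposited. HSC80, also an HSP90 gene, fell by 0.29 (adjusted p = 0.044), with 13.22 and 13.22 in the atv mutant against 13.49 and 13.55 in the wild type, and this call too ended in most alternatives. ER21, an ethylene-responsive gene whose current symbol hsc70.3 names an HSP70 cognate, read 13.09 and 12.71 in the atv mutant against 10.93 and 10.73 in the wild type, a rise of 2.07 (adjusted p = 0.00060). Its other, dimmer probe set also rose (1.64, adjusted p = 0.033). In all, 8 of the 9 heat shock list genes rose and 1 fell.

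**Figure D2:**
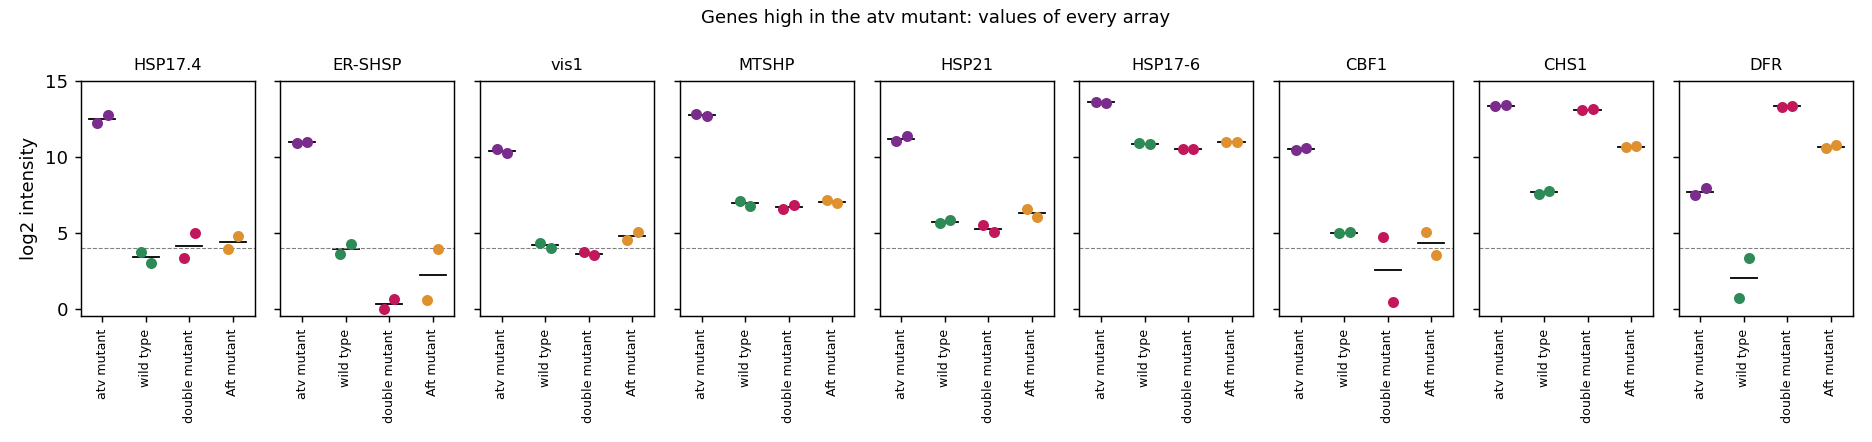
Log2 intensity of 9 genes on each array (points, 2 per genotype; bars are means), atv mutant first, then wild type, double mutant and Aft mutant; the dashed line marks the minimum of 4. The 6 small heat shock protein genes and CBF1 are higher in the 2 atv mutant arrays than in the other 6, HSP17.4 at 12.24 and 12.79, while DFR is highest in the double mutant at 13.30 and 13.39.

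In the double mutant, which carries atv as well, the small heat shock protein genes were not high. HSP17.4 read 3.33 and 4.96 in the double mutant against 3.94 and 4.79 in the Aft mutant, and HSP21 read 5.52 and 5.02 against 6.55 and 6.05. None of the 9 list genes rose in the double mutant relative to the Aft mutant and 3 fell, against 4.1% of all probe sets called in either direction there. The falls were vis1 (-1.16, adjusted p = 0.047), HSP17-6 (-0.45, adjusted p = 0.047) and ER21 (-1.05, adjusted p = 0.040). The interaction, which is the double-minus-Aft difference less the atv-minus-wild-type difference, was -6.51 for HSP21 (adjusted p = 0.00034), and with values floored at 16 it was -8.43 for HSP17.4 (adjusted p = 0.00023). In vis1 the double mutant arrays read 3.71 and 3.53, under the minimum, so the size of its fall there is not well measured.

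Genes of cold, drought and abscisic acid response were mixed. CBF1, an AP2-type transcription factor of cold response, read 10.46 and 10.58 in the atv mutant against 4.95 and 5.08 in the wild type. The groups lie far apart and CBF1 rose by 5.50 (SE 1.35, adjusted p = 0.023), but the call ended without any 1 of the 4 arrays compared, with adjusted p up to 0.096. Its large error comes from the shared spread, which includes 4.72 and 0.42 in the double mutant. With values floored at 16 the difference was also 5.50, with a limma adjusted p of 0.00012. The related dehydration-responsive factor DREB1 read 7.43 and 7.80 in the atv mutant against 5.82 and 6.19 in the wild type and rose by 1.61 (adjusted p = 0.0016). DREB2 (0.48, adjusted p = 0.063) and DREB3 (0.05, adjusted p = 0.79) did not pass.

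Downstream, the dehydrin gene TAS14 rose by 0.81 (10.25 and 10.30 in the atv mutant, against 9.48 and 9.44 in the wild type, adjusted p = 0.0045). The lipid transfer protein genes, which double as epidermis markers, both rose: LE16 read 13.77 and 13.79 in the atv mutant against 11.93 and 11.89 in the wild type, and TSW12 10.50 and 10.75 against 8.85 and 8.60. Their summed intensity was 15454 and 15930 in the atv mutant against 4365 and 4191 in the wild type. Both genes are themselves members of the cold and drought list and count among its 5 rises. Whether their rises reflect a different share of epidermis in the peel was not tested. A further 3 list genes encode transcription factors that fell: AREB1, which binds abscisic acid-responsive elements, by -0.93 (adjusted p = 0.0025, lost as deposited at 0.14), JERF3 by -0.92 (adjusted p = 0.0011) and JERF1 by -0.57 (adjusted p = 0.0055, lost as deposited at 0.070). Of the list 5 genes rose, 3 fell and 2 did not pass, with a median of 0.64. Unlike the heat shock genes, TAS14, LE16 and TSW12 also rose in the double mutant relative to the Aft mutant, by 1.21, 0.99 and 1.52.

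The atv mutant peel had higher transcripts of plastid genes. In the photosynthesis list 7 of 10 genes rose, none fell and 3 did not pass, with a median of 0.58 against -0.11 over all probe sets. CAB5, a chlorophyll a/b-binding protein gene, read 13.93 and 13.72 in the atv mutant against 11.25 and 11.22 in the wild type, a 6.03-fold rise (adjusted p = 0.00016). The 3 chlorophyll-binding protein genes all rose, CAB4 by 0.75 (13.84 and 13.83 in the atv mutant, against 13.05 and 13.13 in the wild type). POR2, a protochlorophyllide reductase needed for chlorophyll, read 13.10 and 13.00 in the atv mutant against 11.76 and 11.73 in the wild type (a rise of 1.31, adjusted p = 0.00034). PETE, plastocyanin, rose by 0.74 (13.52 and 13.54 in the atv mutant, against 12.80 and 12.79 in the wild type, adjusted p = 0.0020). Of the 4 oxygen-evolving and photosystem II proteins, 1 rose and 3 did not pass, with differences of 0.09 to 0.42.

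Carotenoid genes moved the same way. These enzymes build the yellow and red plastid pigments from isoprenoid precursors, through phytoene, lycopene and the xanthophylls, and abscisic acid is made from the end of the path. Of 16 genes tested, 13 rose, 1 fell and 2 did not pass, with a median of 0.92. Among the precursor enzymes, 2 of 3 rose (0.31 to 0.97 over the 3). Both phytoene synthase genes rose, PSY2 with 11.90 and 12.20 in the atv mutant against 9.77 and 9.67 in the wild type (2.33, adjusted p = 0.00027). The ripening-related Psy1 read 12.11 and 12.04 against 11.19 and 11.23 (0.86, adjusted p = 0.0021), and its 2 dim probe sets differed in the same direction and did not pass (0.78 and 0.26). Both desaturase genes rose, by 0.64 and 0.97.

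After lycopene, the epsilon cyclase gene CRTL-E-1, which opens the lutein branch, read 10.27 and 10.55 in the atv mutant against 7.77 and 8.01 in the wild type, a 5.73-fold rise (adjusted p = 0.00015). NSY, also known as the fruit lycopene cyclase gene Cyc-B, read 7.08 and 7.44 in the atv mutant against 6.80 and 6.73 in the wild type and did not pass (0.49, adjusted p = 0.075). The largest change was in VDE, violaxanthin de-epoxidase of the xanthophyll cycle. It read 10.86 and 11.18 in the atv mutant against 8.02 and 8.17 in the wild type (2.92, adjusted p = 0.00020), and its other probe set rose by 2.58. CrtR-b1, a beta-carotene hydroxylase, rose by 1.81 with 11.87 and 11.88 against 10.04 and 10.09. The sole fall of the list was in the cleavage dioxygenase group, which makes abscisic acid and volatiles: there 2 of 3 genes rose and 1 fell, over a range of -1.18 to 1.22, and the fall was not called without wild type 1 or as deposited. In the double mutant relative to the Aft mutant, 0 of the 10 photosynthesis genes and 1 of the 16 carotenoid genes were called. These counts lie near the 4.1% of all probe sets called in that comparison. The interaction was -2.29 for CAB5 (adjusted p = 0.0016) and -2.78 for VDE (adjusted p = 0.0016).

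**Figure D3:**
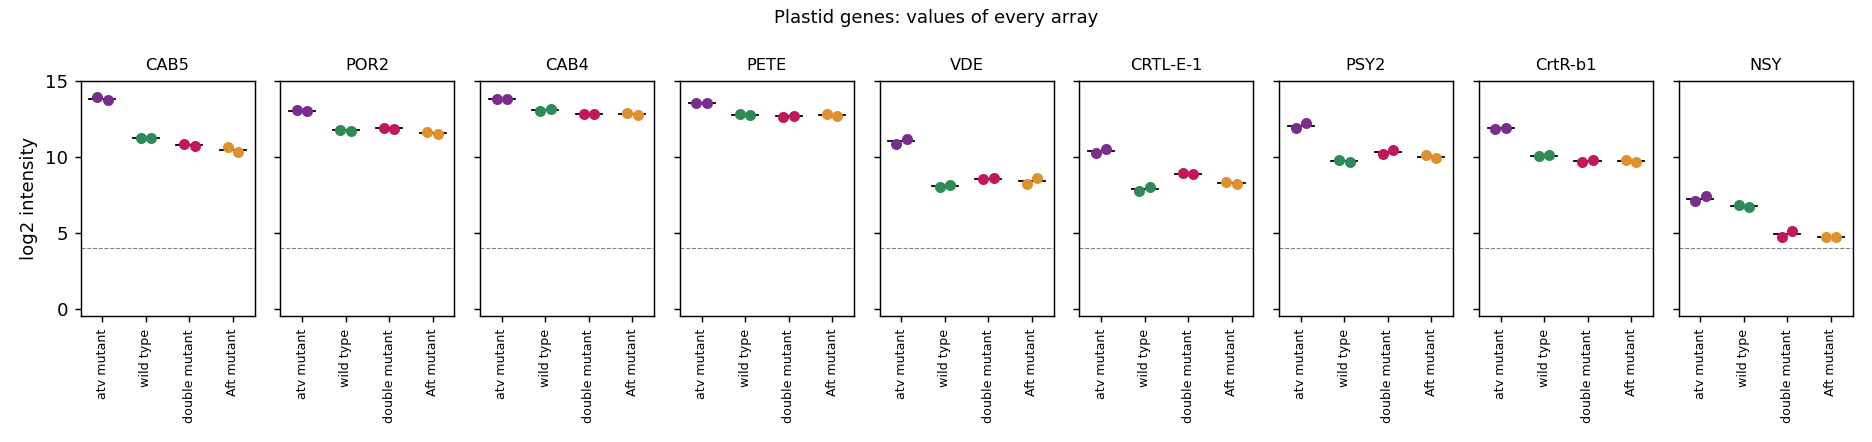
Log2 intensity of 9 plastid pigment and photosynthesis genes on each array (points, 2 per genotype; bars are means; dashed line at the minimum of 4). The atv mutant arrays are the highest for CAB5 (13.93 and 13.72), POR2, CAB4, PETE, VDE, CRTL-E-1, PSY2 and CrtR-b1, while NSY is close in atv mutant and wild type peel and lower in the other genotypes.

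Ethylene genes fell more often than they rose: of 45 tested, 23 fell, 10 rose and 12 did not pass, with a median of -0.54. Tomato makes ethylene through ACC synthases and ACC oxidases, senses it with the ETR receptor family, and relays it through CTR kinases, EIN2 and the EIN3-like factors to ERF transcription factors. Among the receptors 5 of 6 fell and 1 did not pass, with differences of -3.44 to -0.10. ETR6 read 5.97 and 6.94 in the atv mutant against 9.81 and 9.98 in the wild type (-3.44, adjusted p = 0.00070). Of the CTR kinases 2 of 4 fell and 2 did not pass, and all 4 EIN3-like genes fell, by -1.31 to -0.58. Among 10 ERF-type factors 7 fell, 2 rose and 1 did not pass. ERF4 was the furthest, at 6.74 and 6.51 in the atv mutant against 10.59 and 10.58 in the wild type, 15.5-fold lower (adjusted p = 3.1e-05).

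The synthesis genes were divided. Of 7 ACC synthase genes 3 rose, 1 fell and 3 did not pass. ACO5 fell to 4.25 and 4.04 in the atv mutant, against 8.01 and 7.80 in the wild type (-3.76, adjusted p = 6.2e-05), so it was close to the minimum level in the mutant. ACO4, which is active in ripening fruit, went the other way, with 12.70 and 12.81 in the atv mutant against 10.89 and 10.84 in the wild type (1.89, adjusted p = 0.00010). The genes first isolated as ethylene-responsive in tomato fruit were also divided. ER1 read 4.17 and 4.01 in the atv mutant, near the minimum, against 12.55 and 12.46 in the wild type, a fall of 341-fold (-8.42, adjusted p = 2.2e-06). ER24, which encodes the transcriptional coactivator MBF1, read 12.76 and 12.77 in the atv mutant against 8.73 and 8.53 in the wild type (4.14, adjusted p = 3.1e-05). ER24 and ER21 lay apart from the other genotypes in the same arrays as the heat shock genes, with 8.18 and 8.32 for ER24 in the double mutant and 9.0 and 8.75 in the Aft mutant.

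Ripening regulators are MADS-box and NAC transcription factors that act before and with ethylene. Of 10 tested, 6 fell, none rose (1 without wild type 2) and 4 did not pass, with a median of -0.64, or -0.59 with values floored at 16. RIN, the MADS-box gene whose mutation blocks ripening, read 3.54 and 3.06 in the atv mutant against 8.74 and 8.52 in the wild type. With values floored at 16, RIN was at least 24.7-fold lower (adjusted p = 9.4e-05, or 0.00021 without that floor). RIN was also lower in the other mutants than in the wild type, at 6.13 and 6.59 in the double mutant and 5.58 and 4.71 in the Aft mutant, but in neither as low as in the atv mutant. The other 5 falls were smaller: AG1, an AGAMOUS-type gene, read 10.70 and 10.75 in the atv mutant against 11.80 and 11.79 in the wild type (-1.07, adjusted p = 0.0040), and MADS1 11.93 and 11.99 against 12.64 and 12.65 (-0.68, adjusted p = 0.0020). E8, a ripening gene induced by ethylene, read 5.76 and 5.54 in the atv mutant against 6.49 and 6.33 in the wild type, a fall of -0.76 (adjusted p = 0.043) that was lost in 10 alternatives, with adjusted p up to 0.31. The interaction was 5.85 for RIN with values floored at 16 (adjusted p = 0.00032) and 5.16 for ETR6 (adjusted p = 0.0012): in the double mutant ETR6 rose relative to the Aft mutant (1.72, adjusted p = 0.046).

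**Figure D4:**
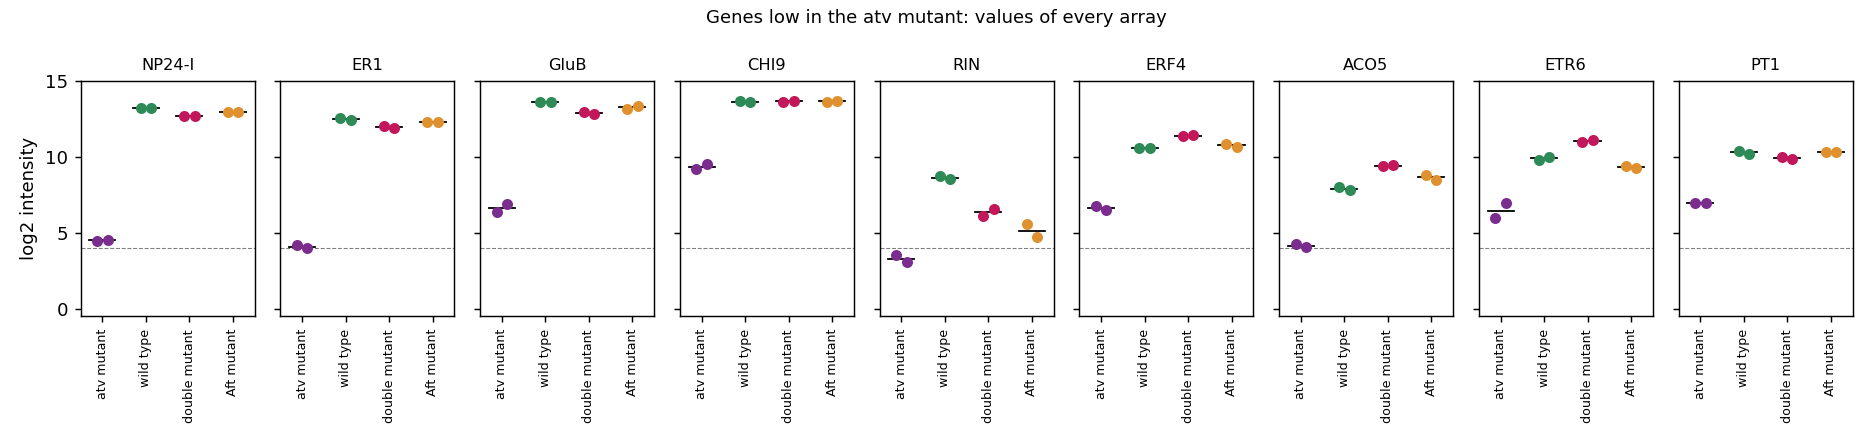
Log2 intensity of 9 genes on each array (points, 2 per genotype; bars are means; dashed line at the minimum of 4), covering defence (NP24-I, GluB, CHI9), ethylene and ripening (ER1, RIN, ERF4, ACO5, ETR6) and phosphate transport (PT1). The 2 atv mutant arrays are the lowest for every gene shown, and for NP24-I they read 4.48 and 4.52 against 13.25 and 13.24 in the wild type.

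Among the defence and wound genes 17 fell, 12 rose and 19 of 48 did not pass, with a median of -0.21, or -0.05 with values floored at 16. The falls numbered 11 without wild type 1 and 11 as deposited. The largest falls were of pathogenesis-related protein genes that are abundant in wild type peel. NP24-I, an osmotin-like protein of the PR-5 family, read 4.48 and 4.52 in the atv mutant against 13.25 and 13.24 in the wild type, a 430-fold fall (adjusted p = 9.8e-07), the largest of any list. GluB, a beta-1,3-glucanase, read 6.36 and 6.92 in the atv mutant against 13.64 and 13.61 in the wild type (-6.98, adjusted p = 2.9e-05). CHI9, a chitinase, read 9.18 and 9.55 in the atv mutant against 13.67 and 13.63 in the wild type (-4.28, adjusted p = 3.1e-05). Of the 4 chitinase genes 2 fell and 2 did not pass. In the double and Aft mutants NP24-I lay between 12.67 and 12.96, close to the wild type. PR-5 fell by 2.65 (adjusted p = 0.018), but the atv mutant arrays were at the minimum (4.13 and 3.89) and the call ended without any 1 of the 4 arrays.

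Other defence genes rose. PIIF, a wound-inducible proteinase inhibitor gene, read 10.53 and 9.80 in the atv mutant against 5.54 and 5.11 in the wild type, 28.6-fold higher (adjusted p = 0.00014). PR1b1, a basic PR-1 gene, read 12.66 and 13.04 in the atv mutant against 9.70 and 9.52 in the wild type (3.24, adjusted p = 0.00011). ARG2, an arginase that is induced by wounding and jasmonate, rose on all 3 of its probe sets, the brightest with 11.42 and 11.39 in the atv mutant against 9.35 and 9.27 in the wild type (2.10, adjusted p = 6.3e-05). Lipoxygenases feed the jasmonate path and the volatiles of green leaves and fruit. Of 10 genes in that list 3 rose, 2 fell and 5 did not pass, and the isoforms differed. LoxD, which serves jasmonate synthesis, appears in the files as loxD and read 10.44 and 10.86 in the atv mutant against 8.0 and 8.01 in the wild type (2.64, adjusted p = 0.00027). The volatile-forming loxC read 5.40 and 5.58 against 8.03 and 7.79 (-2.42, adjusted p = 0.00039), and the fruit gene LOXB 9.40 and 9.58 against 10.996 and 11.09 (-1.56, adjusted p = 0.00046). LOXB fell by the same amount in the double mutant relative to the Aft mutant (-1.58), and its interaction was -0.03 (adjusted p = 0.94), while loxC rose there (1.10, adjusted p = 0.039).

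Cell wall genes showed large changes in both directions around a median of 0.05, or 0.00 with values floored at 16. Of 42 tested, 13 fell, 10 rose and 19 did not pass. Xyloglucan endotransglucosylases, which cut and rejoin the tethers between cellulose fibres, gave the largest rises. tXET-B2 read 12.39 and 12.21 in the atv mutant against 6.44 and 6.13 in the wild type, 64.7-fold higher (adjusted p = 5.2e-05). XTH3 read 11.40 and 11.13 in the atv mutant against 6.24 and 5.65 in the wild type, a rise of 5.32 (adjusted p = 6.0e-05). Over the 10 tested genes of this enzyme family 4 rose, 3 fell and 3 did not pass, with differences of -1.93 to 6.02. The beta-galactosidases, which trim pectin side chains, mostly did not rise: of 7 genes 3 fell, 1 rose and 3 did not pass. TBG4, the one most tied to fruit softening, read 7.88 and 7.71 in the atv mutant against 10.45 and 10.42 in the wild type (-2.64, adjusted p = 6.1e-05). With 13 calls the falls of the list dropped to 7 as deposited and 8 without either wild type array.

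Sugar genes were lower more often than higher: of 22 tested, 10 fell, 3 rose and 9 did not pass, with a median of -0.31. The falls numbered 6 without wild type 1 and 4 as deposited, and the rises 5 without atv mutant 1. LIN8, an apoplastic invertase that splits sucrose outside the cell, read 9.84 and 9.69 in the atv mutant against 5.54 and 5.47 in the wild type (4.26, adjusted p = 0.00045). The other 4 invertases of the list all fell. The hexose transporter HT1 read 8.44 and 8.03 in the atv mutant against 10.66 and 10.49 in the wild type (-2.35, adjusted p = 0.00023). The sucrose transporter SUT4 fell on both probe sets (-1.66 and -1.78). None of the 5 transporter genes rose, with 3 falls. AGPL3, a large subunit of the ADP-glucose pyrophosphorylase of starch synthesis, read 11.08 and 11.32 in the atv mutant against 8.70 and 8.78 in the wild type (2.46, adjusted p = 7.6e-05), while the other 2 subunit genes of this enzyme in the list did not pass.

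Among other transporters 3 of 12 fell, 1 rose and 8 did not pass, where 21.5% of all probe sets fell and 18.8% rose. PT1, a phosphate transporter, read 6.94 and 6.94 in the atv mutant against 10.37 and 10.22 in the wild type, 10.3-fold lower (adjusted p = 3.0e-05). The aquaporin Aqp2 rose by 1.13 (11.38 and 11.46 in the atv mutant, against 10.29 and 10.30 in the wild type, adjusted p = 0.0011), and the metal transporter NRAMP3 fell by 0.85 (11.50 and 11.69, against 12.40 and 12.48, adjusted p = 0.0023).

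Hormone lists other than ethylene were short. Of 8 auxin genes 3 rose, 3 fell and 2 did not pass, but none of the falls was called without wild type 1 and 1 as deposited. The Aux/IAA repressor gene IAA3 read 10.70 and 10.15 in the atv mutant against 8.82 and 8.32 in the wild type (1.85, adjusted p = 0.0026), and IAA7 rose by 1.31 (adjusted p = 0.0019). ARF3, an auxin response factor, fell by 0.69 (adjusted p = 0.0078), a call lost without wild type 1 (adjusted p = 0.058), and a further ARF3 probe set was not called. Of 4 gibberellin genes tested 2 fell and 2 did not pass, and 1 rose without wild type 1. The biosynthetic 20ox-3 read 4.25 and 4.17 in the atv mutant, near the minimum, against 6.60 and 6.43 in the wild type (-2.30, adjusted p = 0.00013), and it fell in the double mutant relative to the Aft mutant as well (-1.65, adjusted p = 0.0041). GAI, the DELLA repressor of gibberellin signalling, read 10.84 and 10.99 in the atv mutant against 12.05 and 12.08 in the wild type (-1.15, adjusted p = 0.00070). Polyamine genes, which make putrescine from arginine and ornithine, rose in 4 of 5 cases and 1 did not pass. Besides ARG2 they included the arginine decarboxylase genes adc1 (0.86, adjusted p = 0.0011) and ADC (0.70, adjusted p = 0.0031, lost as deposited at 0.053).

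Light signalling genes control pigment synthesis in fruit. Of 12 tested 3 fell, 1 rose and 8 did not pass, with a median of -0.05, and these counts lie near the 21.5% and 18.8% of all probe sets. The blue light receptor gene CRY2 read 10.56 and 10.63 in the atv mutant against 11.64 and 11.65 in the wild type (-1.05, adjusted p = 0.0011). COP1, a ubiquitin ligase subunit that removes light-response factors, fell by 0.68 (adjusted p = 0.0078). HY5, a bZIP factor that COP1 targets, rose by 0.58 (11.41 and 11.30 in the atv mutant, against 10.74 and 10.81 in the wild type, adjusted p = 0.0090), and the signalosome subunit csn5 fell by 0.39 (adjusted p = 0.024). As deposited, COP1, HY5 and csn5 were not called (adjusted p up to 0.23 over the alternatives), and without wild type 1 no light gene was called as rising and 1 as falling.

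Redox genes gave 6 rises (3 as deposited), 3 falls (5 with a variance trend) and 7 that did not pass, among 16. The falls include FESOD, which is counted by its brighter probe set although its other probe set rose. The catalase gene CAT2 read 13.44 and 13.41 in the atv mutant against 11.59 and 11.49 in the wild type (1.88, adjusted p = 7.9e-05). The NADPH oxidase genes, whose products make superoxide, differed: Wfi1 read 10.15 and 10.17 in the atv mutant against 12.08 and 12.02 in the wild type (-1.89, adjusted p = 0.00015), and RBOH1 6.58 and 6.63 against 5.53 and 5.70 (0.99, adjusted p = 0.0014). In the list of other transcription factors 5 fell, 2 rose and 13 of 20 did not pass, and the rises numbered 1 without wild type 1 or without either double mutant array and 0 as deposited. LePCL1, named for the Arabidopsis clock gene PCL1, read 4.78 and 5.42 in the atv mutant against 8.49 and 8.61 in the wild type (-3.45, adjusted p = 0.00020). TCP3 read 6.68 and 5.68 in the atv mutant against 9.59 and 9.58 in the wild type (-3.40, adjusted p = 0.0012), and GRAS6 fell by 1.04 (adjusted p = 0.0018). Both double mutant arrays and both Aft mutant arrays were above the wild type for LePCL1.

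Over all probe sets 21.5% fell and 18.8% rose. In the cell cycle and histone list 4 of 13 genes fell, 2 rose and 7 did not pass. The falls numbered 2 without any 1 of the wild type or double mutant arrays and 1 as deposited, and the rises 0 without atv mutant 2 or wild type 2 and 1 without any 1 of atv mutant 1, wild type 1 and the double mutant arrays. The kinase genes CDKA1 (-0.80, adjusted p = 0.0046) and CDKB2 (1.75, adjusted p = 0.019) moved in opposite directions, and the kinase inhibitor krp2 fell by 1.13 (adjusted p = 0.0049). CDKB2 was not called without atv mutant 2 or wild type 2, nor krp2 as deposited. In the phenylpropanoid list THT7-8, a hydroxycinnamoyl transferase gene near background in the wild type, read 6.58 and 5.79 in the atv mutant, against 2.55 and 4.08 in the wild type. With values floored at 16, THT7-8 was higher by at least 4.44-fold (adjusted p = 0.00089, or 0.011 without that floor). The other 4 genes of the list did not pass, with 1 of them falling when the double mutant arrays were left out. None of the 5 ribosomal protein genes passed, with a median of -0.22, but 2 of them fell without atv mutant 1. Of the 2 reference genes, the actin gene ACT did not pass (13.59 and 13.64 in the atv mutant, against 13.70 and 13.75 in the wild type, -0.11). The tubulin gene TUB fell by 0.41 (adjusted p = 0.012). Its call was lost as deposited and in the fit of the 4 arrays alone, among other alternatives.

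Of the genes outside the lists, TPP3 and Prg1 were among the largest rises of called genes with an informative symbol. ICL and VAHOX1 were among the largest falls. TPP3 read 8.97 and 8.75 in the atv mutant against 3.72 and 4.09 in the wild type. With values floored at 16, TPP3 was at least 28.2-fold higher (adjusted p = 6.3e-06, or 4.3e-05 without that floor). Prg1 read 8.92 and 9.17 in the atv mutant against 5.01 and 4.77 in the wild type (4.16, adjusted p = 6.2e-05). ICL, isocitrate lyase of the glyoxylate cycle, fell by 3.09 (7.05 and 7.78 in the atv mutant, against 10.46 and 10.56 in the wild type, adjusted p = 0.00037). VAHOX1, a homeobox gene, fell by 2.51 (6.12 and 6.85 in the atv mutant, against 9.13 and 8.87 in the wild type, adjusted p = 0.0015).

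By their titles the double mutant and the Aft mutant differ in the atv allele too, with no cultivar named for either. The 2 comparisons share no array, although all 8 arrays were normalized and fitted together. Between the double mutant and the Aft mutant 389 probe sets were called, 4.1% of 9493 (239 higher, 2.52%, and 150 lower, 1.58%), against 3829 in the atv mutant relative to the wild type. Regardless of any test, 804 probe sets differed by at least 1 on the log2 scale in the double mutant comparison and 2045 in the atv mutant comparison. Of the 3829 calls, 185 were also called in the double mutant with the same sign and 83 with the opposite sign. The interaction was called for 2293 probe sets (24.2%), among them 2050 of the 3829 (53.5%), and in 1977 of these the double mutant difference was the smaller in size. The 3829 were selected on the atv-minus-wild-type difference, which the interaction also contains. The higher share and the smaller double mutant differences follow at least in part from that selection, so no conclusion is drawn from them. Across all tested probe sets the 2 differences correlated at r = 0.18, a value over probe sets, which are not independent replicates.

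Some of the genes named here rose in both comparisons. CHS1 rose in both, by 5.70 in the atv mutant and 2.44 in the double mutant, with an interaction of -3.26 (adjusted p = 0.00023). ACO4 rose by 1.89 and by 2.27 (interaction 0.38, adjusted p = 0.093), TSW12 by 1.90 and by 1.52 (interaction -0.38, adjusted p = 0.24), and IAA7 by 1.31 and by 1.01 (interaction -0.30, adjusted p = 0.38). DFR rose in the atv mutant, and differed by 2.67 in the double mutant without passing (adjusted p = 0.12). Its mean was 13.34 in the double mutant and 10.67 in the Aft mutant, both well above background. The error used there is shared by all genotypes, and it includes the wild type arrays, where DFR was near background (mean 2.02). With values floored at 16 the interaction for DFR was -1.04 (adjusted p = 0.020). For HSP17.4, CAB5 and NP24-I both atv mutant arrays lay outside the range of the other 6 arrays. These genes were picked with values known, and the share of all probe sets that do so was not counted.

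**Figure D5:**
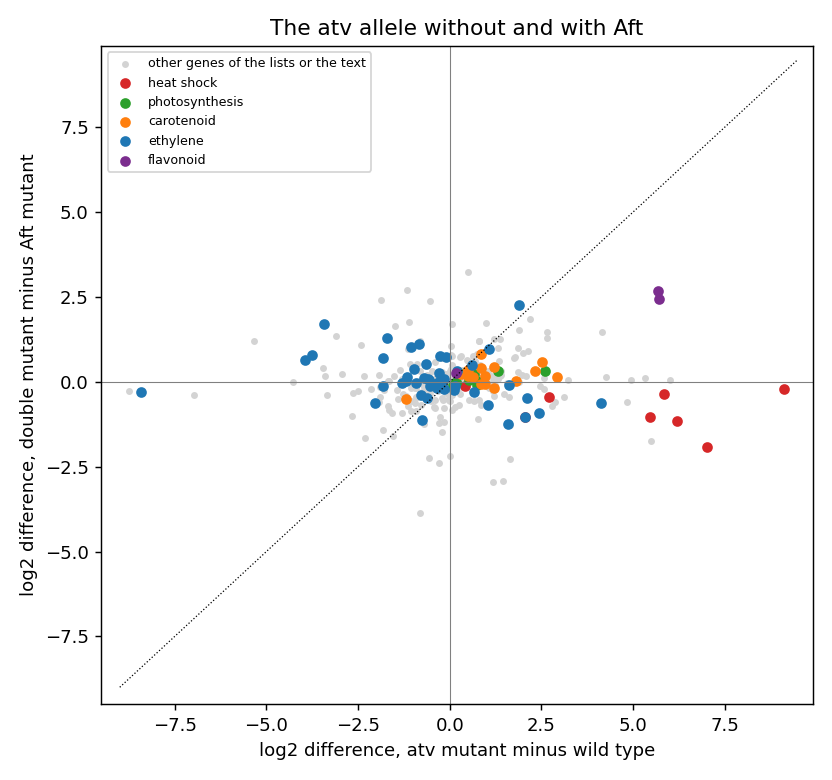
Log2 difference of the double mutant minus the Aft mutant (vertical) against that of the atv mutant minus the wild type (horizontal), 1 point per tested probe set of the listed or named genes; equal differences would lie on the dotted line. Heat shock, photosynthesis and carotenoid genes spread to the right along the horizontal axis, while CHS1 (5.70 and 2.44) and DFR lie between that axis and the dotted line.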

How the data were processed

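RNA from mature green fruit peel was labelled with biotin and hybridised to 8 Affymetrix Tomato Genome Arrays, 2 per genotype, which limits the precision. The deposited table holds 1 linear intensity per probe set and array, made by the authors with GCRMA per the submitters' processing notes, which give no version; their reference scale was not given in the sources used here. Of 10209 probe sets 171 controls were left out. Intensities were quantile-normalized over the 8 arrays, raised to 1 where lower, and put on the log2 scale. Probe sets had to reach 4 on that scale in 2 or more arrays; 545 failed and 9493 were tested.

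Group means over all 8 arrays were fitted in R 4.3.3 by limma 3.58.1, whose moderated test had 4 residual and 1.77 prior degrees of freedom. The 3 contrasts were atv mutant minus wild type, double mutant minus Aft mutant, and the second less the first (the interaction). Tests were two-sided, with Benjamini-Hochberg adjustment over all tested probe sets. Levels are given per array and errors of differences are limma's SE. A fold against a group with a mean under 4 is a bound computed with intensities floored at 16. In simulated data 50 of 9493 probe sets were changed at each size in the contrast of atv mutant and wild type. The fit recovered 7 changes of 0.5, 21 of 1, 34 of 2 and 44 of 3 on the log2 scale, and 9 of 115 calls were false. The data had 40.3% of probe sets called, a far larger share than was changed in the simulation. These rates therefore need not hold for the comparison itself.

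The platform annotation, which is old, gave 1 symbol each to 909 probe sets, of which 885 were found in a newer gene table through the gene identifier. Gene lists were drawn up by symbol, overlap in part, and use 1 probe set per gene, the brightest; lists are described by counts and medians, with no test of their own. The members and lists were chosen with earlier results of these data known. AGP-1, an arabinogalactan protein gene that did not pass, was taken off the sugar list after its values were seen. Named genes are all members of the flavonoid, heat shock, cold and drought, and light lists, the 3 members of each further list with the lowest p, other probe sets of these genes, the genes of the atv and Aft loci where annotated, and the 15 largest rises and 15 largest falls of called genes whose symbol is informative. The text gives a part of these, shortened after the values were known, so counts over genes named in the text describe that choice. Gene families within lists were also grouped with the values known. CAB4, Psy1, PSY2, NSY, ACO4, E8, PR1b1, FESOD, GS2, chMDH, Fad7 and ADH2 lie outside this rule and were chosen after their values were seen. Alternatives were the deposited intensities without quantile normalization, a floor of 16, no filter and a minimum of 6, a fit of the 4 arrays alone, a replicate block, a variance trend, the double mutant arrays left out, all probe sets of a gene, and each array left out. Promoter motifs were not analysed here.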

Additional observations from a re-analysis of the deposited data

Results flagged for a closer look

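Among the tested genes named in the text, 73 had an interaction called by limma at an adjusted p under 0.05. Their double-minus-Aft difference departed from their atv-minus-wild-type difference. The genes named are a set shortened with values known. The values are the double-minus-Aft difference less the atv-minus-wild-type difference on the log2 scale, for the brightest probe set, and the background is the 24.2% of all probe sets called in the interaction. It was below 0 for 38 of these genes and above 0 for 35. Many of these genes were named for their atv-minus-wild-type difference, which enters the interaction with its sign reversed. How many were called, and the signs listed below, therefore follow in part from that choice.

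Genes higher in the atv mutant than in the wild type had mostly negative values. The heat shock list gave -9.35 for HSP17.4, -8.96 for ER-SHSP, -7.37 for vis1, -6.51 for HSP21, -6.19 for MTSHP, -3.17 for HSP17-6 and -3.11 for ER21, and the coactivator gene ER24 gave -4.77. In the cold and drought list CBF1 gave -7.23, DREB1 -2.04 and LE16 -0.88, while DREB3, which did not pass in the atv mutant, gave 0.73. The flavonoid gene CHS1 gave -3.26. Photosynthesis genes gave -2.29 for CAB5, -1.0 for POR2, -0.83 for PETE and -0.73 for CAB4. Carotenoid genes gave -2.78 for VDE, -2.02 for PSY2, -1.93 for CRTL-E-1 and -1.80 for CrtR-b1. In the cell wall list tXET-B2 gave -5.97 and XTH3 -5.19. Defence and wound genes gave -5.42 for PIIF, -3.19 for PR1b1, -1.92 for ARG2 and -1.36 for loxD. Metabolic genes gave -4.10 for LIN8, -2.58 for AGPL3, -3.57 for chMDH, -1.76 for GS2, -1.60 for Fad7 and -1.54 for adc1. The remaining negative values were -4.91 for TPP3, -3.47 for THT7-8, -2.68 for Prg1, -1.87 for CAT2, -1.57 for IAA3 and -0.94 for Aqp2.

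Genes lower in the atv mutant than in the wild type had positive values. Defence genes gave 8.48 for NP24-I, 6.60 for GluB, 4.26 for CHI9 and 3.52 for loxC. Ethylene and ripening genes gave 8.11 for ER1, 6.55 for RIN, 5.16 for ETR6, 4.59 for ERF4, 4.54 for ACO5, 1.61 for AG1 and 0.78 for MADS1. The stress response factors JERF3, AREB1 and JERF1 gave 0.89, 0.76 and 0.61. Transcription factor genes gave 3.85 for LePCL1, 3.58 for TCP3, 2.25 for VAHOX1 and 0.87 for GRAS6. Transport, metabolic and cell wall genes gave 4.46 for ICL, 2.96 for PT1, 2.53 for HT1, 2.30 for TBG4, 1.69 for SUT4, 1.37 for ADH2 and 0.86 for NRAMP3. The remaining values were 1.43 for Wfi1, 1.16 for GAI, 1.11 for CDKA1, 1.01 for CRY2, 0.85 for COP1, 0.65 for 20ox-3 and 0.49 for TUB. RBOH1, which rose in both comparisons and by more in the double mutant, gave 0.74. The brighter probe set of FESOD gave 0.55, while the probe sets of this gene oppose each other.

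In 7 of these genes a genotype mean lay under the minimum of 4, so the values above rest in part on unmeasured levels. With intensities floored at 16 they were -8.43 for HSP17.4, -6.83 for ER-SHSP, -6.99 for vis1, -5.68 for CBF1, -4.77 for TPP3, -2.19 for THT7-8 and 5.85 for RIN, each called.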

How the results depend on the processing

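The count of probe sets called in the atv mutant relative to the wild type, 3829, was 1987 on the intensities as deposited and 2115 to 3835 with each array left out in turn (2115 without wild type 1, 2226 without wild type 2). It lay between 2906 and 4151 under the other alternatives. The 389 calls between the double mutant and the Aft mutant became 76 as deposited, 584 with values floored at 16, 698 with a variance trend, and 73 to 821 with each array left out. Here the count was 73 without double mutant 2, 83 without Aft mutant 1, 134 without either wild type array, 153 without double mutant 1, 246 without Aft mutant 2 and 821 without either atv mutant array. The 2293 interaction calls became 872 as deposited and 1157 to 2579 with each array left out (1157 and 1182 without wild type 1 and 2, 1298 and 1455 without double mutant 2 and 1). The causes were not tested. With the replicate number as a block the 3 counts were 3765, 356 and 2170. Same-numbered arrays of atv mutant and wild type deviated together weakly (r = 0.18), as did those of atv mutant and double mutant (0.17), and the other 4 pairs gave -0.04 to 0.02, so the numbers were not taken to pair the samples. Of the 94 tested genes named in the text 89 were called, 74 of these in every alternative run, and none of the 89 changed direction; these genes were chosen with their values known. As deposited 11 of the 89 were not called, and 11 were not called without at least 1 array. Calls lost most often were those of CBF1, PR-5, E8, Hsp90-1, HSC80, TUB, csn5 and the dim probe sets of ER21 and IAA7. With 2 arrays per genotype, small differences and levels near the minimum of 4 are measured least firmly.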

Other observations

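Genes of plastid and carbon metabolism outside the lists, chosen after their values were seen, also differed between atv mutant and wild type peel. GS2, the plastid glutamine synthetase of nitrogen assimilation, read 13.16 and 13.11 in the atv mutant against 11.13 and 11.19 in the wild type (1.98, adjusted p = 6.7e-05). The chloroplast malate dehydrogenase gene chMDH read 11.18 and 11.46 in the atv mutant against 8.27 and 8.13 in the wild type (3.12, adjusted p = 7.9e-05). Fad7, a plastid fatty acid desaturase, rose by 1.58 (12.60 and 12.63 in the atv mutant, against 11.05 and 11.02 in the wild type, adjusted p = 0.00017). ADH2, the alcohol dehydrogenase of fruit, fell by 1.29 (11.85 and 12.23 in the atv mutant, against 13.30 and 13.36 in the wild type, adjusted p = 0.0015). None of these 4 was called in the double mutant relative to the Aft mutant, where the differences were 0.21, -0.45, -0.03 and 0.08. Of all probe sets, 4.1% were called in that comparison.

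The probe sets of FESOD, an iron superoxide dismutase gene, opposed each other. The brighter one read 12.00 and 12.13 in the atv mutant against 12.75 and 12.79 in the wild type (-0.71, adjusted p = 0.0029). The other read 12.57 and 12.66 against 10.38 and 10.55 (2.15, adjusted p = 0.00012), so no direction is given for this gene.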
